A study of Homo sapiens with 9 samples.

Results

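Proteasome subunit genes were measured in PANC-1, a cell line from a human pancreatic adenocarcinoma, and followed over 2 doses of TVB-3166, an inhibitor of fatty acid synthase. The set holds 38 genes chosen by name: the subunits of the constitutive 20S core and 19S regulatory particle, 3 assembly chaperones that carry PSMD names, and 4 genes of other activators. Every probe set that the array annotation pairs with exactly 1 of these genes was taken, which gave 65 of 54675 probe sets and 33 of the 38 genes. All 33 passed the filter on dim signal through 60 of their probe sets, and they are 33 of the 13948 genes tested. The other 5 were not tested: the probe sets of PSMA6 are annotated to PRORP as well, that of PSME2 to MIR7703 as well, and PSMC5, PSMD7 and PSMD13 have no probe set of their own in the annotation used.

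Total RNA was hybridised to 9 Affymetrix HG-U133 Plus 2.0 arrays, 3 for each of DMSO vehicle, 0.1 µM and 1.0 µM TVB-3166 by title. All cells were treated for 72 hours in a medium with charcoal-filtered serum, and all carry the same line label, a pancreatic adenocarcinoma. The labels conflict in places: samples titled 1.0 µM carry 0.1 µM in their treatment field, 0.1 µM replicate 1 is described as DMSO, and the percentage of DMSO differs between fields. Treatments were in triplicate, but nothing says that the replicates were separate cultures, and the spread behind each p-value may then be technical.

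The proteasome is the protease that degrades most ubiquitin-tagged proteins of the cytosol and nucleus. Its 20S core is a barrel of alpha and beta rings with the active sites inside the beta rings, and its 19S regulatory particle binds ubiquitin chains, removes them and threads the unfolded substrate into the core with a ring of ATPases. In immune and interferon-treated cells, immunoproteasome subunits replace the catalytic beta subunits and change the peptides made for antigen presentation. The genes of the particle are widely expressed and are known to rise together under the transcription factor NFE2L1 (also called NRF1) when proteasome activity is blocked.

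The values are MAS5 signals, a brightness per probe set that the authors scaled to 1 target, and log2 changes are differences of log2(signal + 16) ± limma standard error with 3 arrays in each group. A gene is called higher or lower where limma's adjusted p, over all tested genes, is under 0.05. Where a gene has several probe sets, the brightest stands for it, and signals are compared within a probe set only. Arrays of 1 group correlated at 0.981 to 0.990 across genes, which are not independent replicates. The ductal keratins KRT8, KRT18 and KRT19 had median signals of 15245, 21941 and 16739, and the other 2 markers of that list, KRT7 and CDH1, had 662.4 and 1288. KRT8 and KRT19 were called lower at 1.0 µM, KRT7 was called higher at both doses and CDH1 was called lower at 0.1 µM. The blood marker PTPRC, the endothelial marker CDH5 and the endocrine markers INS and GCG were below the filter, while CD3E, ITGAM and PECAM1 passed it at medians of 65.9, 104.7 and 193.3 and were not called. KLK3, a prostate marker, had a median of 465 and was not called at either dose. The 9 probe sets for hybridisation spikes, transcripts added to every sample, averaged above 11.68 (log2) on 4 arrays, which were DMSO replicate 2, both replicate 1 and replicate 3 at 0.1 µM, and replicate 2 at 1.0 µM. They averaged less on the other 5, and these sets are called the higher and the lower spike set.

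Few of these genes were called, and at 1.0 µM the share called higher was not far from that of all tested genes. At 1.0 µM against DMSO, 3 of 33 (9.09%) were called higher, where 12.3% of all tested genes were called higher, and 0 of 33 were called lower, where 11% of all tested genes were. The 3 were PSMD11, PSMD14 and PSMB7, 2 subunits of the 19S particle and 1 of the 20S core. PSMD11 was called higher on its brighter probe set only, and its dimmer probe set was called lower at both doses. The median log2 change of the 33 was 0.07 (-0.01 without 1.0 µM replicate 2), with a range of -0.17 (PSMD2) to 0.54 (PSMD11), and the median of all tested genes was 0.01. At 0.1 µM against DMSO, limma called 0 of 33 higher and 0 lower, where 6.89% of all tested genes were higher and 5.11% lower, and 1 of the 33, PSMD11, had an unadjusted p under 0.05. The median was again 0.07, the range was -0.09 (PSMD6) to 0.31 (PSMD11), and the median of all tested genes was -0.01. Both doses were set against the same 3 DMSO arrays. In bulk RNA of this kind, fewer cells that express a gene and less of its RNA per cell cannot be told apart.

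For the brightest probe set of each gene, the intervals bounded most of the changes. They rest on the spread between arrays, which may be technical. The standard errors of the members lay between 0.08 and 0.22 with a median of 0.12. At 1.0 µM, 29 of 33 members had a 95% interval that stayed within 0.58 of 0, which is a 1.5-fold change in either direction on this scale. The intervals of PSMB7, PSMC4, PSMD11 and PSMD14 reached past it. At 0.1 µM, 32 of 33 intervals stayed inside and only that of PSMC4 did not. The dimmer probe sets were not counted here, and 201316_at of PSMA2 changed by -0.52 ± 0.12 at 1.0 µM.

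**Figure D1:**
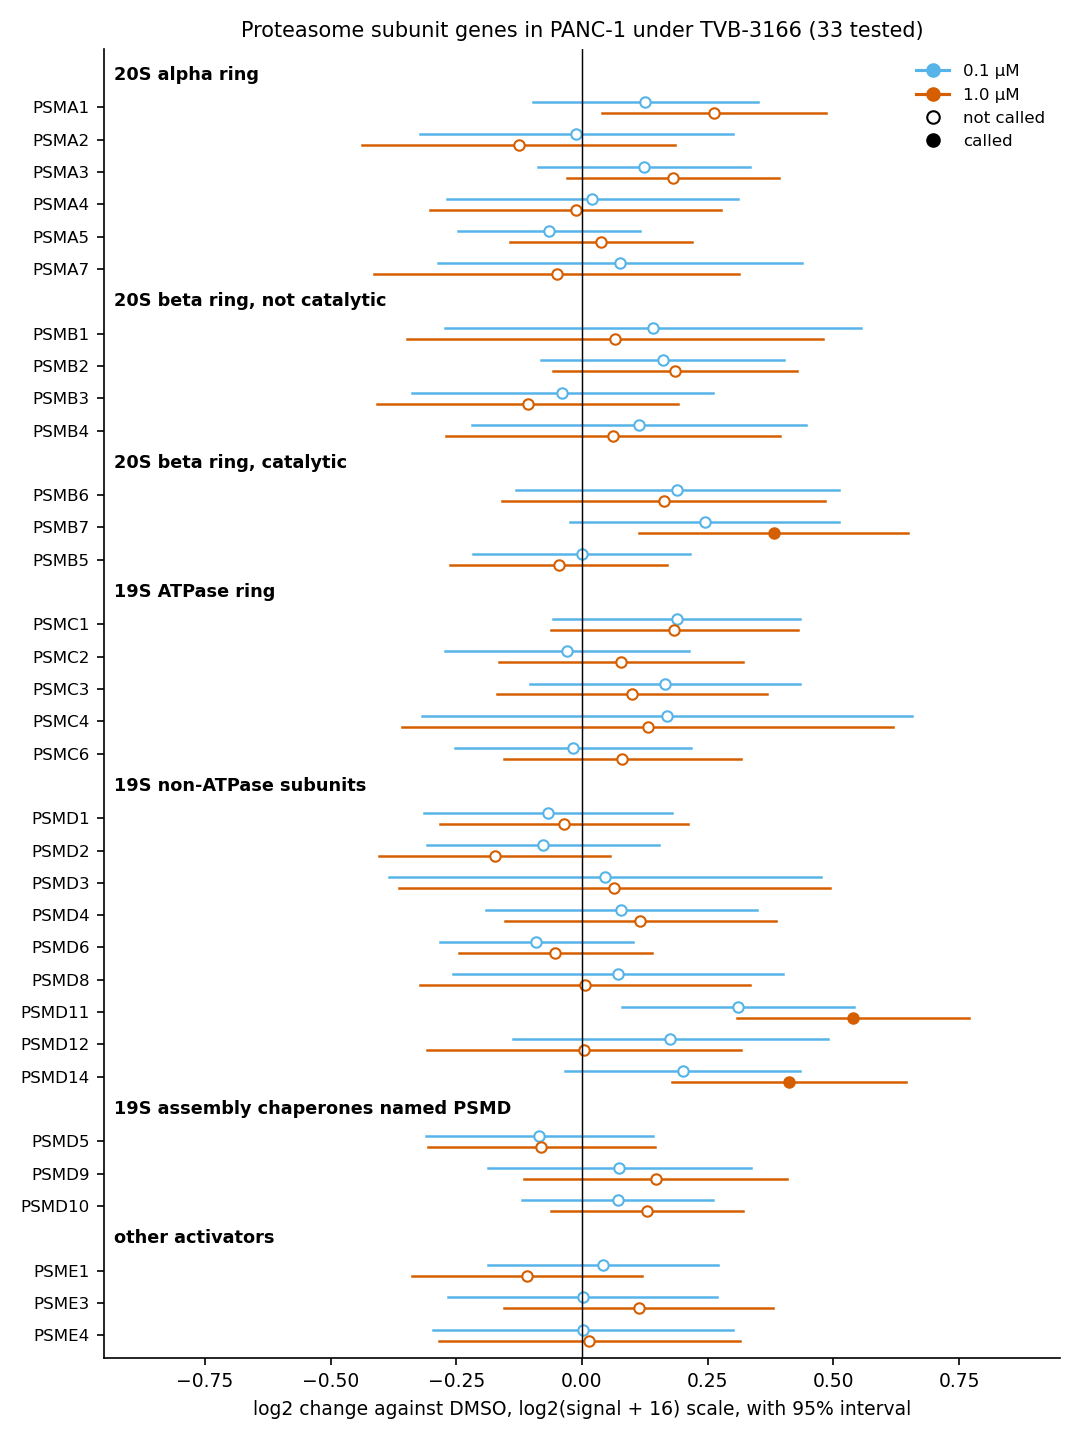
The plot shows the log2 change against DMSO with its 95% interval for each of the 33 tested subunit genes, grouped by role, at 0.1 µM (blue) and 1.0 µM (orange), with filled points where limma called the gene. PSMD11, PSMD14 and PSMB7 at 1.0 µM are the filled points, and 29 of 33 points at 1.0 µM and 30 of 33 at 0.1 µM lie within 0.2 of 0.

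The alpha ring forms the gated ends of the core. None of its 6 tested subunits was called at either dose, and their median log2 changes were 0.05 at 0.1 µM and 0.01 at 1.0 µM. PSMA1 had signals of 10485, 10817 and 9009 in DMSO, 11278, 10712 and 11000.4 at 0.1 µM, and 11537, 12309.9 and 12432 at 1.0 µM. The 3 arrays at 1.0 µM were all above the 3 DMSO arrays, and the log2 change was 0.26 ± 0.10 with an adjusted p of 0.0864. PSMA3 had signals of 7406, 7986 and 7225 in DMSO, 8428, 7809 and 8389 at 0.1 µM, and 7912, 9185 and 8579.9 at 1.0 µM. Its treated and DMSO arrays overlapped, and its change at 1.0 µM was 0.18 ± 0.10 (adjusted p = 0.211). The other tested alpha subunits lay closer to 0 at 1.0 µM, with -0.01 for PSMA4, 0.04 for PSMA5 and -0.05 for PSMA7.

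PSMA2, another alpha subunit, gave different answers from its 2 probe sets. The brighter one, 201317_s_at, had signals of 9193, 10748 and 8935 in DMSO, 10398, 7702 and 10766 at 0.1 µM, and 8028, 9959 and 8503 at 1.0 µM, and changed by -0.13 ± 0.14 at 1.0 µM. The dimmer one, 201316_at, had 1313, 1123 and 1049.7 in DMSO, 920.3, 1097 and 858 at 0.1 µM, and 827, 764 and 817 at 1.0 µM. All 3 arrays at 1.0 µM lay below all 3 DMSO arrays for 201316_at. In a fit over all 32768 probe sets, 201316_at was called lower at 1.0 µM, by -0.52 ± 0.12 (adjusted p = 0.00985), and 201317_s_at was not called. As the mean of both probe sets, PSMA2 changed by -0.32 at 1.0 µM and was called lower (adjusted p = 0.0150). PSMA2 lies on chromosome 7, 42916861 to 42932174 (GRCh38.p14), and other probe sets annotated to both PSMA2 and C7orf25 were not used.

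The beta subunits without an active site complete the inner rings. None of PSMB1, PSMB2, PSMB3 and PSMB4 was called, with medians of 0.13 at 0.1 µM and 0.06 at 1.0 µM. PSMB2 had signals of 7364, 8455 and 7441 in DMSO, 9410.0, 7857 and 8749 at 0.1 µM, and 8132, 9752 and 8581 at 1.0 µM, with a change of 0.18 ± 0.11 at 1.0 µM (adjusted p = 0.273). PSMB3 had 8636.5, 10068.5 and 8532 in DMSO, 9774, 7706 and 9084 at 0.1 µM, and 7556, 10152 and 7729.6 at 1.0 µM, a change of -0.11 ± 0.14 at 1.0 µM. In both genes the groups overlapped. PSMB4 had 9497, 11479.9 and 9746 in DMSO, 12564, 9076.5 and 11804 at 0.1 µM, and 9377, 12784.5 and 10076 at 1.0 µM. PSMB4 and PSMB1 changed by 0.06 and 0.07 at 1.0 µM. PSMB1 was the brightest member, with a DMSO mean of 15614 ± 2210.5 (SD, n = 3).

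The catalytic beta subunits cut the substrate. PSMB6 carries the caspase-like site, PSMB7 the trypsin-like site and PSMB5 the chymotrypsin-like site, the main target of clinical proteasome inhibitors. PSMB7 (chromosome 9, 124353465 to 124415442) was the 1 core subunit called higher at 1.0 µM. Its signals were 6574, 7325 and 6559 in DMSO, 8750.1, 7031 and 8539 at 0.1 µM, and 8063, 10288.5 and 8428 at 1.0 µM. The 1.0 µM arrays were all above the DMSO arrays, while the 0.1 µM arrays overlapped them. The log2 changes were 0.24 ± 0.12 at 0.1 µM (adjusted p = 0.244) and 0.38 ± 0.12 at 1.0 µM (adjusted p = 0.0418). The call at 1.0 µM was lost in 13 of 26 alternative settings, 7 of them among the 9 fits that left out 1 array, and the fit over all probe sets gave an adjusted p of 0.0551.

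The other 2 catalytic subunits were not called. PSMB6 had signals of 5908, 6414 and 5713 in DMSO, 7719.6, 5733 and 7262 at 0.1 µM, and 6051, 8403 and 5975 at 1.0 µM, changing by 0.19 ± 0.15 at 0.1 µM and 0.16 ± 0.15 at 1.0 µM. PSMB5 had 5761, 5707 and 5787 in DMSO, 6389, 5314 and 5598 at 0.1 µM, and 5124, 5975 and 5648 at 1.0 µM. Its changes were -0.00051 ± 0.10 at 0.1 µM and -0.05 ± 0.10 at 1.0 µM, and the 95% interval at 1.0 µM was -0.26 to 0.17.

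The ATPase ring unfolds the substrate and opens the alpha ring gate. None of its 5 tested subunits was called. At 1.0 µM all 5 log2 changes were above 0 (median 0.10), and at 0.1 µM 3 of 5 were (median 0.17). PSMC1 had signals of 5077, 5610.0 and 4562 in DMSO, 6276, 5247 and 5842 at 0.1 µM, and 5457, 6409.9 and 5449 at 1.0 µM, a change of 0.18 ± 0.11 at 1.0 µM (adjusted p = 0.282). PSMC3 had 4241, 4715 and 4198 in DMSO, 5450.0, 4286 and 5074 at 0.1 µM, and 4138, 5477 and 4555 at 1.0 µM. PSMC6 had 5246, 4431 and 3991 in DMSO, 4439.6, 4670.3 and 4310.5 at 0.1 µM, and 4705, 4543 and 5126 at 1.0 µM. The groups overlapped in all 3 genes, and PSMC3, PSMC6 and PSMC2 changed by 0.10, 0.08 and 0.08 at 1.0 µM. PSMC4 changed by 0.13 ± 0.22 and had the widest interval of all members, -0.36 to 0.62 at 1.0 µM.

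Among the brightest probe sets of the members, that of PSMD11 had the largest log2 change at 1.0 µM. PSMD11 is a subunit of the 19S lid that clamps the lid to the ATPase ring and the core. It is known in human stem cells as a subunit that sets proteasome assembly. PSMD11 lies on chromosome 17, 32444510 to 32483319. Its brighter probe set, 208777_s_at, had signals of 7151, 6617 and 6834 in DMSO, 8798, 7982 and 8796 at 0.1 µM, and 8886, 11193 and 10009 at 1.0 µM. Both treated groups lay above all DMSO arrays, and the 1.0 µM arrays above all 0.1 µM arrays. The log2 change was 0.31 ± 0.11 at 0.1 µM (adjusted p = 0.0823) and 0.54 ± 0.11 at 1.0 µM (adjusted p = 0.00298), and the means at 1.0 µM and in DMSO were 10029 ± 1153 and 6867 ± 268 (SD, n = 3 each).

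The dimmer probe set of PSMD11, 208776_at, went the other way. It had signals of 822, 787 and 918 in DMSO, 536, 627 and 586 at 0.1 µM, and 676, 576 and 698 at 1.0 µM. All treated arrays lay below all DMSO arrays. The fit over all probe sets called it lower at both doses, by -0.52 ± 0.11 at 0.1 µM (adjusted p = 0.0155) and by -0.37 ± 0.11 at 1.0 µM (adjusted p = 0.0448), and called 208777_s_at higher at 1.0 µM (adjusted p = 0.00468). Taken as the mean of both probe sets, PSMD11 changed by 0.09 at 1.0 µM and was not called (adjusted p = 0.480). Which transcripts each probe set binds was not tested, so the direction of PSMD11 holds for 1 probe set of 2.

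PSMD14 is the deubiquitinase of the lid that cuts ubiquitin chains off the substrate, and it has 1 probe set here. The gene lies on chromosome 2, 161308425 to 161411717. It had signals of 6573, 7342 and 6478 in DMSO, 8575, 7234 and 7647 at 0.1 µM, and 8315, 9884 and 8968 at 1.0 µM. The 1.0 µM arrays were all above the DMSO arrays. The log2 change was 0.20 ± 0.11 at 0.1 µM (adjusted p = 0.275) and 0.41 ± 0.11 at 1.0 µM (adjusted p = 0.0154). The call at 1.0 µM was lost in 4 of 26 alternatives, including the fits without DMSO replicate 1 (adjusted p = 0.0572) and without DMSO replicate 3 (adjusted p = 0.0540).

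**Figure D2:**
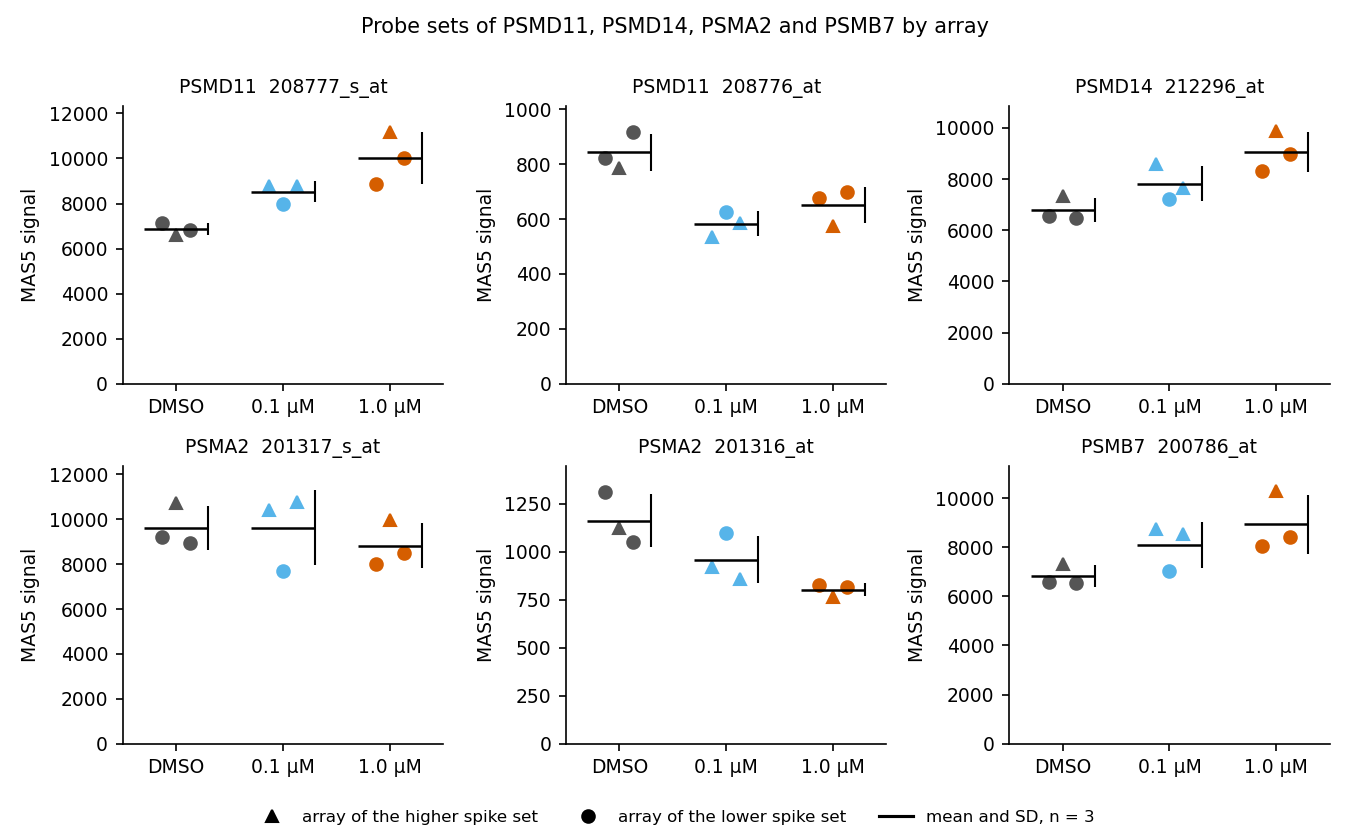
The panels show the MAS5 signal of 6 probe sets of PSMD11, PSMD14, PSMA2 and PSMB7 on each array, by dose, with triangles for the 4 arrays of higher spike signal and bars for the mean and SD (n = 3). PSMD11 208777_s_at is higher at each dose step, while 208776_at is lower at both doses than in DMSO.

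The sequence before the start of both called 19S genes is shown with the motifs of known proteasome gene regulators. The call of PSMD11 as higher holds for 1 probe set of 2. Each line holds the 250 bases before the RefSeq transcript start (GRCh38.p14, 5′ to 3′ with the gene), PSMD11 on the plus strand at chr17:32444260-32444509 and PSMD14 on the plus strand at chr2:161308175-161308424. Capitals mark CCAAT on either strand, the letters bound by the factor NF-Y, and would mark TGACNNNGC, the antioxidant response element letters that NFE2L1 and NFE2L2 bind with small MAF partners.
PSMD11: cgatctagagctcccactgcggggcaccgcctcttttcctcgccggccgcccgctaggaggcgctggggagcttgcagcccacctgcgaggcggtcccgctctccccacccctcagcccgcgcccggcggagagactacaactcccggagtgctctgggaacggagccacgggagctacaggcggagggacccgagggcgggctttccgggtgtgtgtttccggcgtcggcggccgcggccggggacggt
PSMD14: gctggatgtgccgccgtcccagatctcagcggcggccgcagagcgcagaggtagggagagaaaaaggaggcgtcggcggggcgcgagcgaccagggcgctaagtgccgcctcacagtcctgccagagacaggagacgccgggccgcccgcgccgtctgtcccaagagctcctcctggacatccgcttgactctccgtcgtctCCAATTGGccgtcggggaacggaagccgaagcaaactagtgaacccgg
Neither window held TGACNNNGC. The PSMD14 window held CCAAT on both strands in 1 overlapping run, and the PSMD11 window held none.

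The remaining lid and base subunits were not called. PSMD2, a large scaffold of the base that binds ubiquitin receptors, had the lowest change, with signals of 7189.8, 7469.7 and 6465 in DMSO, 7009, 5952.5 and 7069.5 at 0.1 µM, and 5876, 6737 and 6103 at 1.0 µM. Its 1.0 µM arrays overlapped the DMSO arrays, and it changed by -0.17 ± 0.11 (adjusted p = 0.279). PSMD1, the other large base scaffold, changed by -0.04 at 1.0 µM, and PSMD4, a ubiquitin receptor, by 0.12. The lid subunits PSMD3, PSMD6, PSMD8 and PSMD12 changed by 0.06, -0.05, 0.01 and 0.00465 at 1.0 µM. At 0.1 µM these 6 genes lay between -0.09 (PSMD6) and 0.18 (PSMD12).

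PSMD5, PSMD9 and PSMD10 are not parts of the finished particle: they hold ATPase subunits during assembly of the 19S base. None was called. PSMD10, also called gankyrin, had signals of 7211, 7066 and 6789 in DMSO, 7356, 7341 and 7420.5 at 0.1 µM, and 7245, 7755 and 8052 at 1.0 µM. Both treated groups lay above all DMSO arrays, yet the change at 1.0 µM was 0.13 ± 0.09 (adjusted p = 0.339). PSMD9 had 2794, 3075 and 2521 in DMSO, 3144, 2596 and 3097 at 0.1 µM, and 2797.5, 3572 and 2946.5 at 1.0 µM. PSMD5 had 2113, 1682.5 and 1898.5 in DMSO, 1761, 1964.5 and 1633 at 0.1 µM, and 1778, 1809 and 1773 at 1.0 µM. The groups of PSMD9 and PSMD5 overlapped, and their changes at 1.0 µM were 0.15 and -0.08.

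The PSME genes encode activators that open the core without ATP. PSME1 and PSME2 form the interferon-inducible 11S ring, of which PSME2 was not tested. PSME1 had signals of 3313, 3643 and 3200.4 in DMSO, 3747, 3268 and 3443 at 0.1 µM, and 2989.9, 3574 and 2873 at 1.0 µM, and changed by 0.04 ± 0.10 at 0.1 µM and -0.11 ± 0.10 at 1.0 µM. PSME3, which forms the nuclear 11S ring, had 1824, 1577 and 1965 in DMSO, 1653, 1865 and 1838 at 0.1 µM, and 2202, 1626 and 1999.9 at 1.0 µM. PSME4, a single-chain nuclear activator, had 1711, 1996 and 2471 in DMSO, 2116, 1819 and 2201 at 0.1 µM, and 1924.5, 2344 and 1930.2 at 1.0 µM. The groups overlapped in all 3 genes, and PSME3 and PSME4 changed by 0.11 ± 0.12 and 0.01 ± 0.14 at 1.0 µM.

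The changes of the core and of the regulatory particle were small in both. At 1.0 µM the median log2 change was 0.06 over 13 tested core subunits, 1 of them called higher, and 0.08 over 14 tested 19S subunits, 2 of them called higher. At 0.1 µM the medians were 0.11 and 0.07 with none called. Without 1.0 µM replicate 2, the medians at 1.0 µM were -0.07 over the core and -0.01 over the 19S subunits, and the core median was also below 0 with array weights (-0.02) and with either other choice of probe set (-0.01). No test was made of the difference between the particles. Of the 60 probe sets above the filter, 2 (3.33%) were called higher at 1.0 µM, where 8.94% of all probe sets were, and 2 (3.33%) were called lower, where 8.68% were. At 0.1 µM 0 of 60 were called higher, where 4.59% of all probe sets were, and 1 (1.67%) was called lower, where 3.66% were. Of the 33 genes, 15 had 1 probe set above the filter and 18 had several.

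The levels of these genes differed between the 2 spike sets within every dose group. Relative to the DMSO mean, the median log2 level of the 13 core subunits was -0.06, 0.13 and -0.07 on the DMSO arrays, 0.16, -0.11 and 0.17 at 0.1 µM, and -0.12, 0.29 and -0.01 at 1.0 µM. For the 14 19S subunits it was -0.04, 0.11 and -0.07 in DMSO, 0.21, -0.10 and 0.14 at 0.1 µM, and -0.08, 0.31 and 0.04 at 1.0 µM. In each group the arrays of higher spike signal had the higher medians. Within groups, 29 of 33 members were higher on the arrays of higher spike signal, by a median of 0.21, where 48.7% of all tested genes were, by a median of -0.01. Among the 635 tested genes at least as bright as the median member, 616 were higher there, by a median of 0.28. PSMC4 had the largest such difference (0.56), and PSME3 (-0.24), PSMD5 (-0.14), PSMC6 (-0.08) and PSMA5 (-0.02) were lower on those arrays. The part of the spike split in the results was tested only by the fits that follow.

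**Figure D3:**
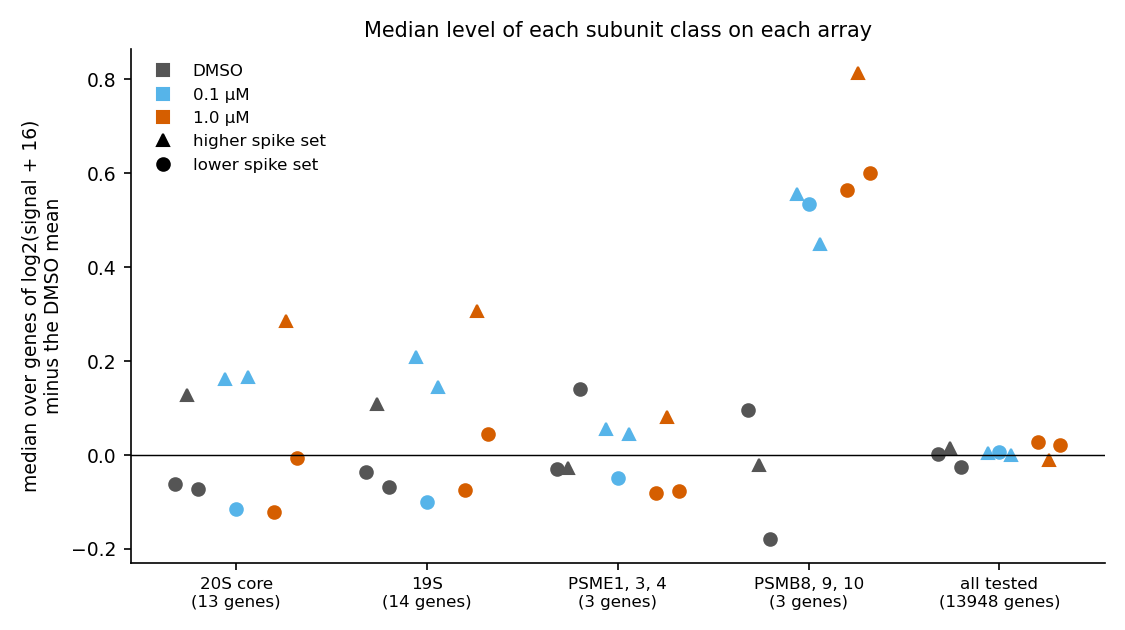
Each point is the median over genes of log2(signal + 16) on 1 array minus the DMSO mean of each gene, for the core, the 19S particle, PSME1 with PSME3 and PSME4, the immunoproteasome subunits and all tested genes, coloured by dose, with triangles for the 4 arrays of higher spike signal. Core and 19S medians are higher on the triangles in every dose group, whereas the immunoproteasome medians of both doses lie above all DMSO arrays.

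Within the lower spike set, 2 arrays of 1.0 µM were compared with 2 of DMSO, and PSMB7, PSMD11 and PSMD14 changed by 0.33, 0.43 and 0.40 (adjusted p 0.0310, 0.0178 and 0.0169). With only the 4 arrays of higher spike signal they changed by 0.49, 0.76 and 0.43. This rests on 1 array of 1.0 µM against 1 of DMSO, so no spread was measured in either of these groups. With the spike level as a covariate, 7 members were called higher at 1.0 µM, adding PSMA1 (0.26), PSMA3 (0.18), PSMB2 (0.19) and PSMC1 (0.19). PSMD2 (-0.17) was called lower, and the median over members was 0.08. The share of all tested genes called in that covariate fit is not given here, so these counts do not set members against other genes. At 0.1 µM the same covariate put the median over members at -0.02, against 0.07 without it, and PSMD11 was called higher (0.27, adjusted p = 0.0257). The 0.1 µM group holds 2 of the 4 arrays of higher spike signal and each other group 1.

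Between the doses, 1.0 µM against 0.1 µM, limma called 0 of 33 members in either direction, with 0 of 33 at an unadjusted p under 0.05. Of all tested genes 0.387% were called higher and 0.43% lower. All 33 intervals stayed within 0.58 of 0. The largest differences were in PSMD11 (0.23 ± 0.11, adjusted p = 0.409) and PSMD14 (0.21 ± 0.11, adjusted p = 0.457), and the most negative was in PSMD12 (-0.17 ± 0.14). With the spike covariate PSMD14 (0.27, adjusted p = 0.0454) and PSMB7 (0.23, adjusted p = 0.0490) were called higher at 1.0 µM than at 0.1 µM.

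The immunoproteasome counterparts of the catalytic subunits are no members of the constitutive set, and PSMB8 and PSMB9 rose at both doses. PSMB8, which replaces PSMB5, had signals of 1010.0, 858 and 761 in DMSO, 1288, 1268 and 1195 at 0.1 µM, and 1294, 1543 and 1566 at 1.0 µM, a rise of 0.51 ± 0.12 at 0.1 µM and 0.74 ± 0.12 at 1.0 µM (adjusted p 0.0140 and 0.000752). PSMB9, which replaces PSMB6, had 1471, 1459 and 1213 in DMSO, 2226.5, 2132 and 2200.0 at 0.1 µM, and 2304, 2472.5 and 2095 at 1.0 µM, a rise of 0.66 ± 0.10 and 0.73 ± 0.10 (adjusted p 0.00107 and 0.000272). In both genes every treated array lay above every DMSO array. PSMB10, which replaces PSMB7, had 805, 740.0 and 820.4 in DMSO, 943, 906 and 873 at 0.1 µM, and 808, 1099 and 972 at 1.0 µM, and was not called (0.20 ± 0.12 and 0.27 ± 0.12). At 0.1 µM the limma call of PSMB8 was lost without 0.1 µM replicate 1 (0.49, adjusted p = 0.0568) and with a fold of at least 1.5 required. The lower spike set has replicate 2 as its only 0.1 µM array. There PSMB8 changed by 0.52 and PSMB9 by 0.67 at 0.1 µM, and both calls were lost. At 1.0 µM both were called in all 26 alternatives. The difference in response between an immunoproteasome subunit and its constitutive counterpart was not tested.

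**Figure D4:**
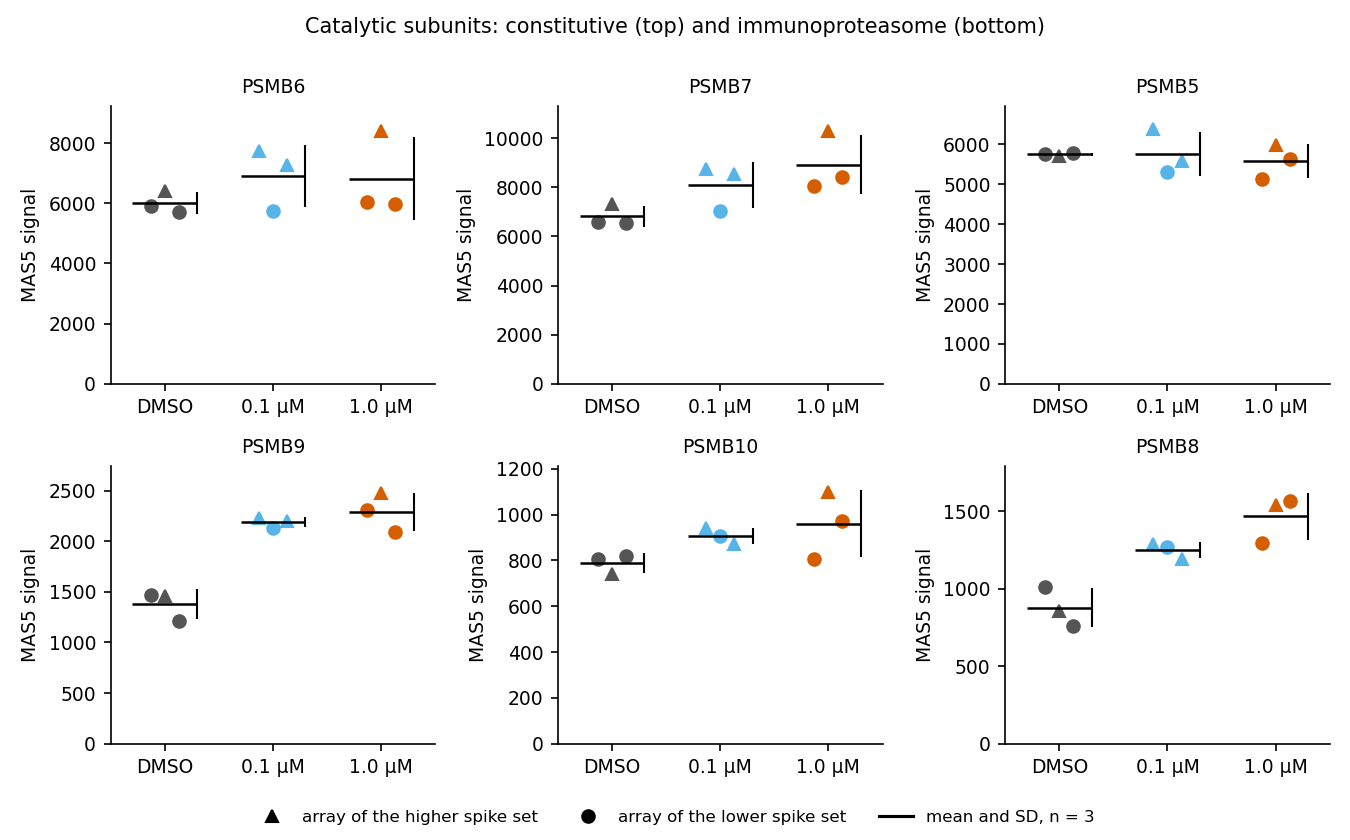
The panels show the MAS5 signal on each array by dose for the constitutive catalytic subunits PSMB6, PSMB7 and PSMB5 (top row) and for the immunoproteasome subunit that replaces each of them, PSMB9, PSMB10 and PSMB8 (bottom row), with triangles for the 4 arrays of higher spike signal and bars for mean and SD (n = 3). PSMB9 and PSMB8 are above DMSO at both doses, and PSMB6 and PSMB5 overlap DMSO.

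RNA of NFE2L1 and of the tested factors related to it rose, and their proteins were not measured. NFE2L1 is made at the endoplasmic reticulum and is activated by the glycanase NGLY1 and the protease DDI2. It binds DNA with the small MAF proteins MAFF, MAFG and MAFK. Of 7 listed genes, 5 were tested and all 5 were called higher at 1.0 µM (median 0.79), and 4 at 0.1 µM (median 0.61), where 12.3% and 6.89% of all tested genes were called higher at 1.0 µM and at 0.1 µM. MAFF had signals of 485, 412.5 and 367 in DMSO, 1108, 1259.9 and 1196 at 0.1 µM, and 2798, 2309 and 2578.5 at 1.0 µM, a rise of 1.47 ± 0.12 at 0.1 µM and 2.56 ± 0.12 at 1.0 µM, and it was the 1 gene of these lists called between the doses (1.10, adjusted p = 0.00227). NGLY1 had 1015, 1021 and 864 in DMSO, 1457.5, 1483 and 1499 at 0.1 µM, and 1636, 1671 and 1721 at 1.0 µM, rising by 0.61 ± 0.09 and 0.79 ± 0.09 (adjusted p 0.000948 and 6.72e-05). On the lower spike set, whose only 0.1 µM array is replicate 2, NGLY1 changed by 0.65 at 0.1 µM and its call was lost. For both genes the 3 groups did not overlap.

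MAFG rose by 0.55 ± 0.11 at 0.1 µM, a call lost in 3 of 26 alternatives, and by 0.91 ± 0.11 at 1.0 µM. NFE2L2, a relative of NFE2L1 that drives antioxidant genes, rose by 0.53 ± 0.10 at 1.0 µM and had 0.31 ± 0.10 at 0.1 µM, where it was not called (adjusted p = 0.0786). NFE2L1 itself, named after its values were seen, had signals of 3380.4, 3778 and 5297 in DMSO, 6821, 5343 and 7007 at 0.1 µM, and 5945, 8434 and 6209 at 1.0 µM. It rose by 0.64 ± 0.18 and 0.73 ± 0.18 (adjusted p 0.0392 and 0.0115). At 0.1 µM its call was lost in 10 of 26 alternatives, among them the fit without a filter (adjusted p = 0.0648), and at 1.0 µM in 2, without DMSO replicate 1 (0.60, adjusted p = 0.0515) and on the arrays of lower spike signal (0.52, adjusted p = 0.0958).

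The genes around the particle were mixed. None of the 5 tested chaperones of 20S assembly (PSMG1 to PSMG4 and POMP) was called, with a median of 0.08 at 1.0 µM. Of 10 proteasome-associated genes, 2 were called higher at 1.0 µM, where 12.3% of all tested genes were. They were AKIRIN2, which brings proteasomes into the nucleus, by 0.56 ± 0.13 (adjusted p = 0.00857), and ECPAS, a scaffold protein that binds the 26S particle, by 0.53 ± 0.14 (adjusted p = 0.0178). AKIRIN2 had signals of 1723, 1878 and 2504.5 in DMSO, 2324, 2169.8 and 2304 at 0.1 µM, and 2664.5, 3213 and 3043 at 1.0 µM, with all 1.0 µM arrays above the others. On the lower spike set it was not called (0.45, adjusted p = 0.115). ECPAS was called on 2 of its 4 probe sets, the other 2 changed by 0.10 and -0.03, and the mean of all 4 was not called (0.27, adjusted p = 0.0721). Its call was lost in 6 of 26 alternatives, including the fits without DMSO replicate 3 (adjusted p = 0.0570), without 1.0 µM replicate 1 (adjusted p = 0.0713) and without 1.0 µM replicate 3 (adjusted p = 0.0658).

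Upstream of the particle, UBA1, the main enzyme that activates ubiquitin, fell. It had signals of 5249.9, 5086 and 6854 in DMSO, 4816, 4312 and 4238 at 0.1 µM, and 3381, 4165 and 3310.1 at 1.0 µM, and changed by -0.35 ± 0.13 at 0.1 µM, which was not called, and -0.66 ± 0.13 at 1.0 µM (adjusted p = 0.00326). On the higher spike set, which holds 1 array of 1.0 µM and 1 of DMSO, UBA1 changed by -0.29 and was not called. The other tested genes of that list, UBB and UBA6, were not called. Of 10 tested ubiquitin shuttles and cofactors of the p97 unfoldase, 1 rose at 1.0 µM, NSFL1C (0.37 ± 0.10, adjusted p = 0.0186), whose call was lost in 7 of 26 alternatives, among them the fits without DMSO replicate 1 (adjusted p = 0.0668) and without 1.0 µM replicate 3 (adjusted p = 0.0632). The gene of p97 itself, VCP, changed by -0.10 ± 0.11. No gene of these 4 lists was called at 0.1 µM. PSMB11, PSMA8, RPS27A, DDI2 and MAFK were not analysed here.

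**Figure D5:**
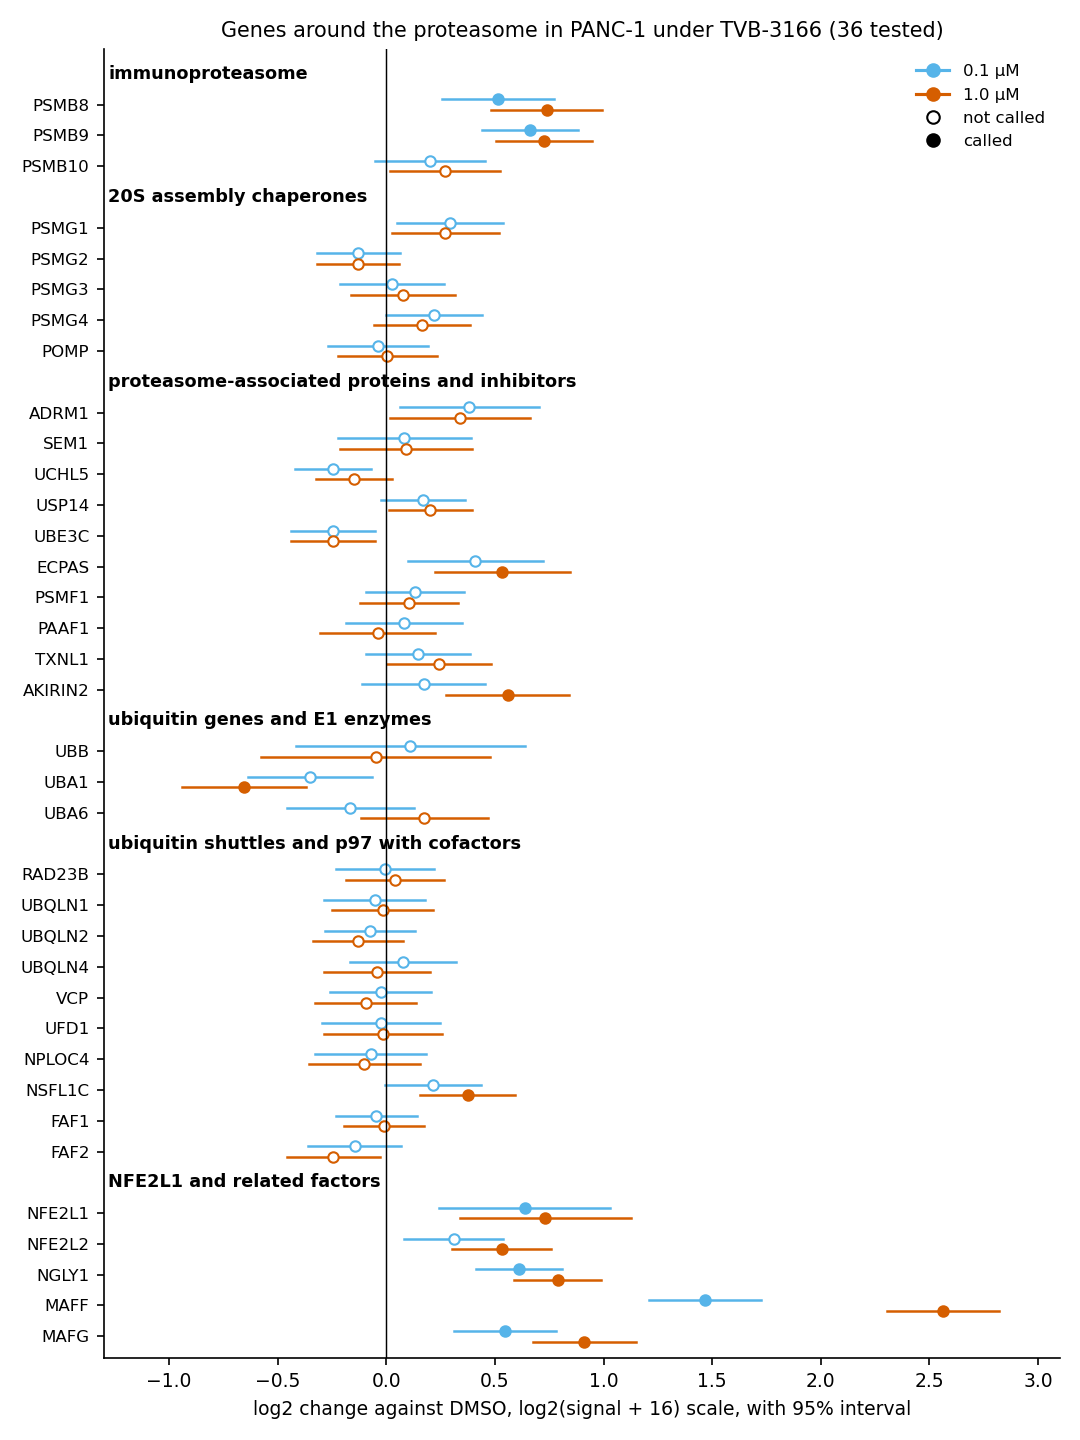
The plot shows the log2 change against DMSO with its 95% interval for 36 tested genes around the proteasome, grouped by role, at 0.1 µM (blue) and 1.0 µM (orange), with filled points where limma called the gene. PSMB8, PSMB9 and the 5 genes around NFE2L1 lie to the right, with MAFF at 2.56 the farthest, and UBA1 at -0.66 is the 1 filled point to the left.

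The letters TGACNNNGC were in a larger share of member promoters than of all promoters, and the difference was not tested. RefSeq promoters (GRCh38.p14, 250 bases before to 50 after the start) were given for 33 of the 38 genes, 39 promoters in all, and not for PSMA7, PSMB1, PSMB6, PSMB7 and PSMD4. TGACNNNGC, on either strand, was in 12 of 39 (30.8%) and in 13.3% of all 35116 promoters, and CCAAT was in 17 of 39 (43.6%) and in 34.6% of all. Neither motif contains the other, though matches may overlap. Of the tested members, 10 held TGACNNNGC, none of them was called at either dose, and their log2 changes at 1.0 µM lay between -0.11 and 0.15 (median -0.004). The 18 tested members with a promoter but without the letters had a median of 0.09 and include PSMD11 and PSMD14, the 2 called higher. With 12.3% of all tested genes called higher, 0 of 10 with the letters and 2 of 18 without them are too few to compare. A match in these letters is a description and not a bound site.

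The promoters below show the motif in 2 members that were not called, PSMD12 (minus strand, chr17:67366578-67366827) and PSMB3 (plus strand, chr17:38752491-38752740), and in the immunoproteasome gene PSMB9 that was (plus strand, chr6:32853942-32854191), each as the 250 bases before the start on the strand of the gene, with TGACNNNGC and CCAAT on either strand in capitals.
PSMD12: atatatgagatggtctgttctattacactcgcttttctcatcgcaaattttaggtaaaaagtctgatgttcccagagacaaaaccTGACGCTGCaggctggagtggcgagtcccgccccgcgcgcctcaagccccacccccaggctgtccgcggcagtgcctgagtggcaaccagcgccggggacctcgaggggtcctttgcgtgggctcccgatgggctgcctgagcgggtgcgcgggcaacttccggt
PSMB3: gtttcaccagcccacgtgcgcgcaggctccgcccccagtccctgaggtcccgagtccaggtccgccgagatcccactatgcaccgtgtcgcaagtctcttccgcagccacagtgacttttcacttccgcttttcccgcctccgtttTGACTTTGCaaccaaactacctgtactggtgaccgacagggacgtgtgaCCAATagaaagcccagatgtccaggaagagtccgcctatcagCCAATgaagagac
PSMB9: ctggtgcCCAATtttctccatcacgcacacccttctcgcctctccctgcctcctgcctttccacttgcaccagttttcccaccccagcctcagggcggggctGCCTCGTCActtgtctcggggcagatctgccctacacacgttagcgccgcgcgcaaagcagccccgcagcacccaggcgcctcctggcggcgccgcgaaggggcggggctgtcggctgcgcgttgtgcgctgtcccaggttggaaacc
The TGACNNNGC match begins 165 bases before the start in PSMD12 and 104 bases before it in PSMB3. In PSMB9 the match is on the opposite strand, and its first printed base is 148 bases before the start. At 1.0 µM PSMD12 changed by 0.00465 ± 0.14 and PSMB3 by -0.11 ± 0.14, and PSMB9 rose by 0.73 ± 0.10.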

How the data were processed

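Gene expression was measured on 9 arrays, 3 for each of DMSO, 0.1 µM and 1.0 µM by title. The deposited values are linear MAS5 signal intensities, per the labels (version not given in the sources used here). The authors scaled each array to 1 target: the trimmed mean, without the outer 2% at each end, was 500.1 on every array. The authors' design text names Partek and no test.

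The intensities were taken as log2(signal + 16) in R 4.3.3. Of 54675 probe sets, 32768 had a mean level above the 40th percentile (signal 39.0) and were kept. Probe sets were named through the platform annotation, 41091 with 1 symbol and 1801 with several, which were not used, and 41037 symbols were matched to RefSeq (GRCh38.p14). The probe set with the highest mean stood for its gene, giving 13948 genes. The 3 groups were fitted together with limma 3.58.1 (eBayes with an intensity trend), with 6 residual degrees of freedom, and p-values were adjusted by Benjamini-Hochberg over all genes; a call is an adjusted p under 0.05. The tests are two-sided. A separate fit took all 32768 probe sets. The number of arrays limits the precision. The scripts were tested on simulated data. The spike split is the largest gap between arrays in the level of 9 spike probe sets, and nothing in the labels names it a batch.

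The members and lists were chosen with earlier results of these data known. Members with values on every array were all those that carry an active site, all PSME genes tested, and the 3 of each class with the smallest p at 1.0 µM; from the other lists, up to 4 called genes by smallest p. Settings tried instead covered the added constant, the filter, the normalization, the choice of probe set, the variance model, the arrays used, the spike level and the replicate number.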

Additional observations from a re-analysis of the deposited data

How the results depend on the processing

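Each comparison was recomputed under 26 alternatives, and 22 of 33 members kept their side of the threshold under all of them at 1.0 µM, 31 at 0.1 µM and 30 between the doses. With the brightest plain _at probe set first, PSMD11 was called lower, by -0.37 at 1.0 µM (adjusted p = 0.0399) and -0.52 at 0.1 µM (adjusted p = 0.0130). Against 3 members called higher at 1.0 µM, quantile normalization gave 6, the spike covariate 7, the higher spike set 5, median centring 1, the mean of probe sets 1 and a fold of at least 1.5 gave 0. Against 0 lower at 1.0 µM, the mean of probe sets gave 1, the plain _at choice 2 and the spike covariate 1. Against 0 higher at 0.1 µM, quantile normalization gave 2, and array weights and the spike covariate gave 1 each. The plain _at choice gave 1 lower at 0.1 µM. Between the doses the spike covariate gave 2 higher and array weights 1 lower. The 20S median at 0.1 µM moved to -0.08 in the lower spike set, whose only 0.1 µM array is replicate 2.

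Of all genes, 3240, 1674 and 114 were called at 1.0 µM, at 0.1 µM and between the doses. A fold of at least 1.5 left 1788 at 1.0 µM and 924 at 0.1 µM, and the lower spike set 324 at 0.1 µM. Between the doses the count was 67 without a filter, 173 with quantile normalization, 51 with median centring, 23 without the trend, 65 with only the 6 arrays, 1953 with array weights, 327 with the spike covariate, 304 on the higher spike set and 1 on the lower. Leaving out 1 array gave 2343 to 3329, 843 to 2003 and 11 to 186 genes; members called higher were 1 to 3 at 1.0 µM (1 without DMSO replicate 1 or 3) and 0 to 1 at 0.1 µM (1 without 1.0 µM replicate 2). The replicate block gave 2550, 1137 and 23 genes and 2 members higher at 1.0 µM (PSMB7 at adjusted p = 0.0971). Same-numbered arrays correlated at -0.34 to 0.22 in their deviations, and differently numbered arrays at -0.26 to 0.27. With so few arrays these correlations cannot decide whether the numbers pair the samples. The causes of these differences were not tested.

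With 3 arrays per group, the change of PSMA1 (0.26) was not called. Probe sets of a gene can differ in the transcripts they bind, and 18 of 33 members rest on the brightest of several. With only the 250 bases before the start, TGACNNNGC was in 25.6% of member promoters and 10.9% of all, and CCAAT in 41.0% and 32.0%.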

Other observations

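Antisense and divergent transcripts that share a name with proteasome genes were looked at after the members' values were seen. PSMA3-AS1 changed by -0.15 at 0.1 µM and -0.16 at 1.0 µM, PSMB8-AS1 by 0.37 and 0.56, PSMD6-AS2 by -0.28 and -0.09, and PSMG3-AS1 by 0.23 and 0.31. None was called by limma, and PSMB8-AS1, named for PSMB8, had an adjusted p of 0.221 at 1.0 µM. PSMD14-DT and PSMD7-DT were not tested.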
